A study of Mus musculus with 9 samples.

Results

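The transcripts described here belong to 31 genes of sterol and fatty acid synthesis, chosen by name from the 36367 genes of a mouse expression array, with each gene read by its probe of highest mean signal over all arrays. Their RNA was measured in extracellular vesicles (EVs), membrane-bound particles that carry RNA and protein out of cells, shed by fibroblasts grown from mouse embryos (MEFs), which are primary cells of connective tissue. The donor cells were labelled PBS treated (phosphate-buffered saline) in 5 samples and Control in 4, each sample was hybridised to 1 array, and the labels name no strain, age, time or further agent for either group. Whether the PBS treated cells were also given the electric pulses with which the study transfects cells is not stated. No label says that replicates came from separate cultures, so a p-value here reflects how far these samples scattered, and that scatter may be technical only.

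Cholesterol is built from acetyl-CoA through mevalonate, isoprenoid pyrophosphates, squalene and lanosterol, and the same acetyl-CoA feeds fatty acid synthesis in the cytosol. Both routes are controlled by the sterol regulatory element-binding proteins (SREBPs), membrane-bound transcription factors encoded by Srebf1 and Srebf2. When membranes hold little sterol, the escort protein Scap carries SREBPs to the Golgi, where they are cut and released, and when sterol is plentiful Insig proteins hold Scap in the endoplasmic reticulum.

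The letters that SREBPs and their usual partner bind were looked up in the promoters, to show what the genes share in sequence beside their levels in EVs. RefSeq promoter windows (GRCm38.p6, from 250 bases before to 50 after each start) were found for 25 of the 31 genes. Those of Fdps, Fdft1, Sqle, Stard4, Scd1 and Scd2 were not matched. The classical sterol response element, searched as TCACNCCAC on both strands, was held by 1 of the 25 genes, Hmgcs1, and by 1.44% of all 27025 genes in the table. The Hmgcs1 element lies 137 to 129 bases before the start, at chr13:119690204-119690232 with its flanks (plus strand, element in capitals).

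Hmgcs1: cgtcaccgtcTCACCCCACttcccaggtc

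A search that let 1 of the 8 fixed letters differ was added after the exact one. It matched 11 of the 25 genes (44.0%), against 26.7% of all genes. Among the 25, it matched 6 of the 12 genes that rose in EVs from PBS treated cells. Near matches of Sc4mol (chr8:64733737-64733765, minus strand) and Nsdhl (chrX:72918306-72918334, plus strand), both genes that rose, are shown in capitals.

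Sc4mol: ctcactattcTCACTCCATccgcgcagcc

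Nsdhl: gcacttaccaTCACCCAACggactctgcc

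The CCAAT box, bound by the factor NF-Y that works beside SREBPs, was held on either strand by 21 of the 25 genes (84.0%), against 41.1% of all genes. A gene was counted if any of its windows held the box. By window, 22 of the 33 windows of these genes held it, against 37.4% of all windows. The box was present in 11 of the 12 genes that rose, in 6 of the 8 that did not pass the test and in all 4 not tested. Scap, which fell, did not hold it. The GC box GGGCGG was held by 20 of the 25 (80.0%), against 38.2% of all genes. Stretches of genes that rose are shown 5′ to 3′ along the gene, with the box, here in its reverse complement, in capitals. They lie at chr13:8885549-8885577 (Idi1, plus strand), chr10:76531531-76531559 (Lss, plus strand), chr9:42264308-42264336 (Sc5d, minus strand) and chr5:28071184-28071212 (Insig1, plus strand).

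Idi1: tgcctccagctgATTGGcgagcccgggca

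Lss: ggtgatgctctgATTGGccgagctcgcat

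Sc5d: cgccggctgctgATTGGccggctgcctgc

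Insig1: cgccctcctcccATTGGctccggcggcct

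Letters in a window are a description of the reference genome. Binding of any factor was not measured in these samples.

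Levels are given as log2 of the background-corrected probe signal relative to the 75th percentile of the array, computed from 8422 probes that stood well above background on every array. Differences are PBS treated minus Control on the same log2 scale. Levels of different probes cannot be set against each other, so each gene is compared only with itself. A gene was tested if its probe was well above background on at least 4 arrays, and it is said to have risen or fallen if its adjusted p in limma's fit over all 14267 genes tested was below 0.05, also written here as called higher or lower.

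Of the 31 genes, 27 were tested, 14 rose, 3 fell and 10 did not pass. Over all genes tested 52.3% changed, 31.6% upward and 20.7% downward, and of the genes of these pathways 51.9% rose and 11.1% fell, a description with no test. Their median difference was 0.68, against -0.02 for all genes. The 14 include Nsdhl, which could be tested only through the group where it was high. Among genes seen well above background in both groups, 13 of 26 rose and 3 fell, against 29.7% and 21.9% of 13338 genes. The groups did not overlap for 17 of the 27 genes, against 47% of all genes, with PBS treated higher for 14 (29.4% of all genes) and lower for 3 (17.6%). In bulk EV RNA, fewer vesicles that hold a transcript and less of it per vesicle cannot be told apart. The counts changed with the scaling. They were 23 higher and 0 lower when arrays were set to their spike-in RNA, control RNA added to each sample (62.7% and 4.96% of all genes). After normexp, a correction that models background within the signal, with the same percentile, 6 were higher and 7 lower (13.2% and 32.5% of all genes). Normexp here also added a constant offset of 50 to every signal, a larger share of a dim signal than of a bright one. The percentile signal averaged 1473 on PBS treated and 675 on Control arrays. The part of the offset in the values given after normexp was not tested.

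**Figure D1:**
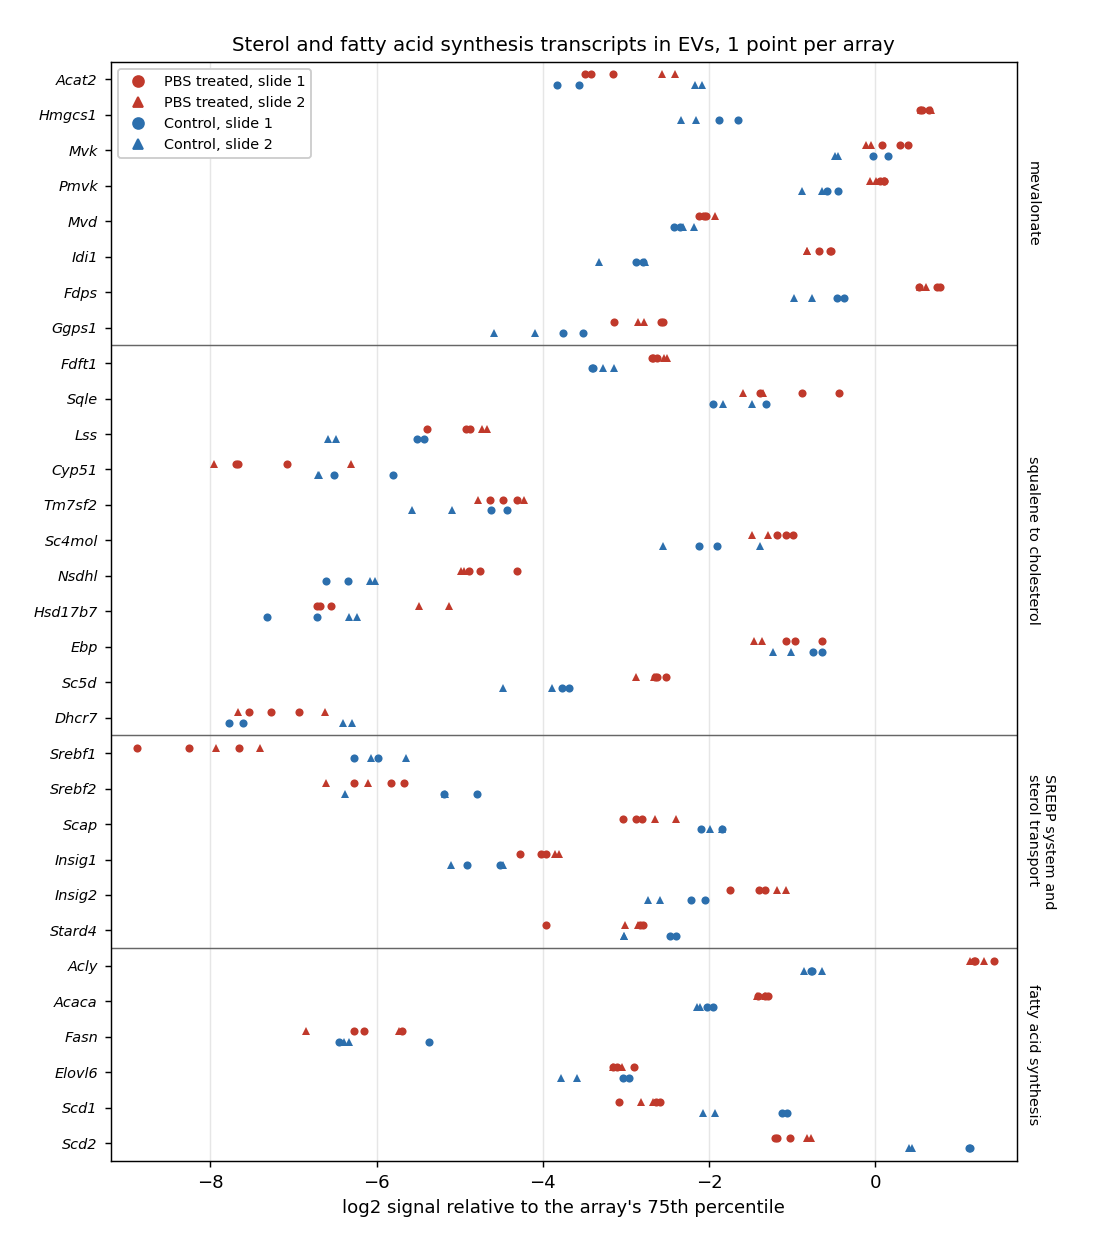
Level of each of the 31 genes on each of the 9 arrays (x axis, log2 signal relative to the 75th percentile of the array), with 5 PBS treated arrays in red and 4 Control arrays in blue, and circles and triangles for slides 1 and 2. The red points of Hmgcs1, Idi1 and Acly lie farthest to the right of the blue points of the same gene, and those of Scd1 and Scd2 lie to the left of the blue points.

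The arrays differed in how much they detected. Between 16475 and 19212 of 55581 probes were well above background on PBS treated arrays and between 12574 and 15538 on Control arrays. Both slides held both groups, with replicates 1 to 3 of the PBS treated group and 1 and 2 of the Control group on slide 1 and the rest on slide 2. Of the 31 genes, 25 were well above background on all 5 PBS treated arrays and 19 on all 4 Control arrays. The part of this difference in the counts above was not tested. Of 12 fibroblast markers, 11 were well above background on a PBS treated array and 9 on a Control array, and Thy1 on none. Their summed level (log2), which follows bright probes such as that of Vim, was 3.61 to 3.85 on PBS treated and 3.52 to 3.80 on Control arrays. Single markers moved in opposite directions. Of 10 tested, Dcn (2.03), Lum and Twist1 (1.23) were called higher and Col1a1 (-1.35), Pdgfra (-1.95) and Fn1 (-1.17) lower, and Lum was seen above background in PBS treated EVs only.

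Genes of the mevalonate route lead from acetyl-CoA to the isoprenoid pyrophosphates. Of 8 tested, 5 rose (62.5%) and none fell, against 31.6% and 20.7% of all genes tested. Their median difference was 0.94. Hmgcs1, the cytosolic HMG-CoA synthase, an early enzyme of the route, lay at 0.56, 0.64, 0.53, 0.66 and 0.56 on the PBS treated arrays and at -1.88, -1.66, -2.16 and -2.34 on the Control arrays. The PBS treated arrays lay within a narrow band, and every Control array lay far below it. Hmgcs1 was 6.06-fold higher, a difference of 2.60 ± 0.15 (SE, n = 5 and 4, adjusted p = 5.18e-06), the largest rise of the 27 genes.

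Idi1, the isomerase that makes dimethylallyl pyrophosphate, lay at -0.68, -0.55, -0.53, -0.82 and -0.82 in PBS treated and at -2.79, -2.88, -3.32 and -2.77 in Control EVs. The groups were again far apart, with a difference of 2.26 ± 0.15 (SE, adjusted p = 9.72e-06), or 4.79-fold. The Idi1 probe lies on mm9 at chromosome 13, 8891524 to 8891583. Fdps, which joins isoprenoid units into farnesyl pyrophosphate, lay at 0.74, 0.78, 0.53, 0.54 and 0.61 against -0.46, -0.38, -0.97 and -0.76. Its groups did not overlap, and it rose by 1.28 ± 0.15 (SE, adjusted p = 0.000162).

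Ggps1, which adds a further unit to give the geranylgeranyl chain used for protein prenylation, lay at -2.55, -2.58, -3.14, -2.78 and -2.86 in PBS treated EVs and at -3.52, -3.75, -4.10 and -4.59 in Control EVs. The lowest PBS treated array lay above every Control array. Ggps1 rose by 1.21 ± 0.23 (SE, adjusted p = 0.00246), and of its Control arrays only those of slide 1 were well above background. A second Ggps1 probe, at chromosome 13, 14145961 to 14146020 on mm9, differed by 1.02. It was well above background on the 5 PBS treated arrays and on no Control array. A difference was therefore built in, and its test is not given.

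The kinases and the decarboxylase that turn mevalonate into isopentenyl pyrophosphate moved less. Pmvk, the phosphomevalonate kinase, rose by 0.68 ± 0.12 (SE, adjusted p = 0.00145), with PBS treated arrays from -0.06 to 0.11 and Control arrays from -0.88 to -0.45. Mvd, the decarboxylase, differed by 0.27 (adjusted p = 0.054) although its groups did not overlap, at -2.12 to -1.93 against -2.42 to -2.18. Mvk, mevalonate kinase, differed by 0.33 (adjusted p = 0.171), with overlapping groups at -0.11 to 0.40 and -0.49 to 0.15. With slide as a block, Mvk (adjusted p = 0.049) and Mvd (adjusted p = 0.026) passed. Acat2, the thiolase that opens the route by joining acetyl-CoA units, differed by -0.10 (adjusted p = 0.858), and its levels followed the slide in both groups, at -3.49 to -3.15 and -3.83 to -3.56 on slide 1 against -2.57 to -2.41 and -2.17 to -2.08 on slide 2.

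Hmgcs1, Idi1, Fdps and, among the fatty acid genes, Acly were called higher under all 6 scalings tried. Over all 31 genes, 12 had more than 1 probe, and of 13 further probes 5 could be tested. All 5 had a positive difference, and 3 were called higher, those of Ggps1, Pmvk and Insig2. The Ggps1 probe among them was seen above background in PBS treated EVs only, so its direction was built in. The further probes of Fdft1 and Nsdhl were well above background on no array. Pmvk was not called when the percentile was taken over all probes, although its difference was then larger at 1.08 (adjusted p = 0.0702). Ggps1 was not called after normexp with the percentile of detected probes, at 0.20.

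**Figure D2:**
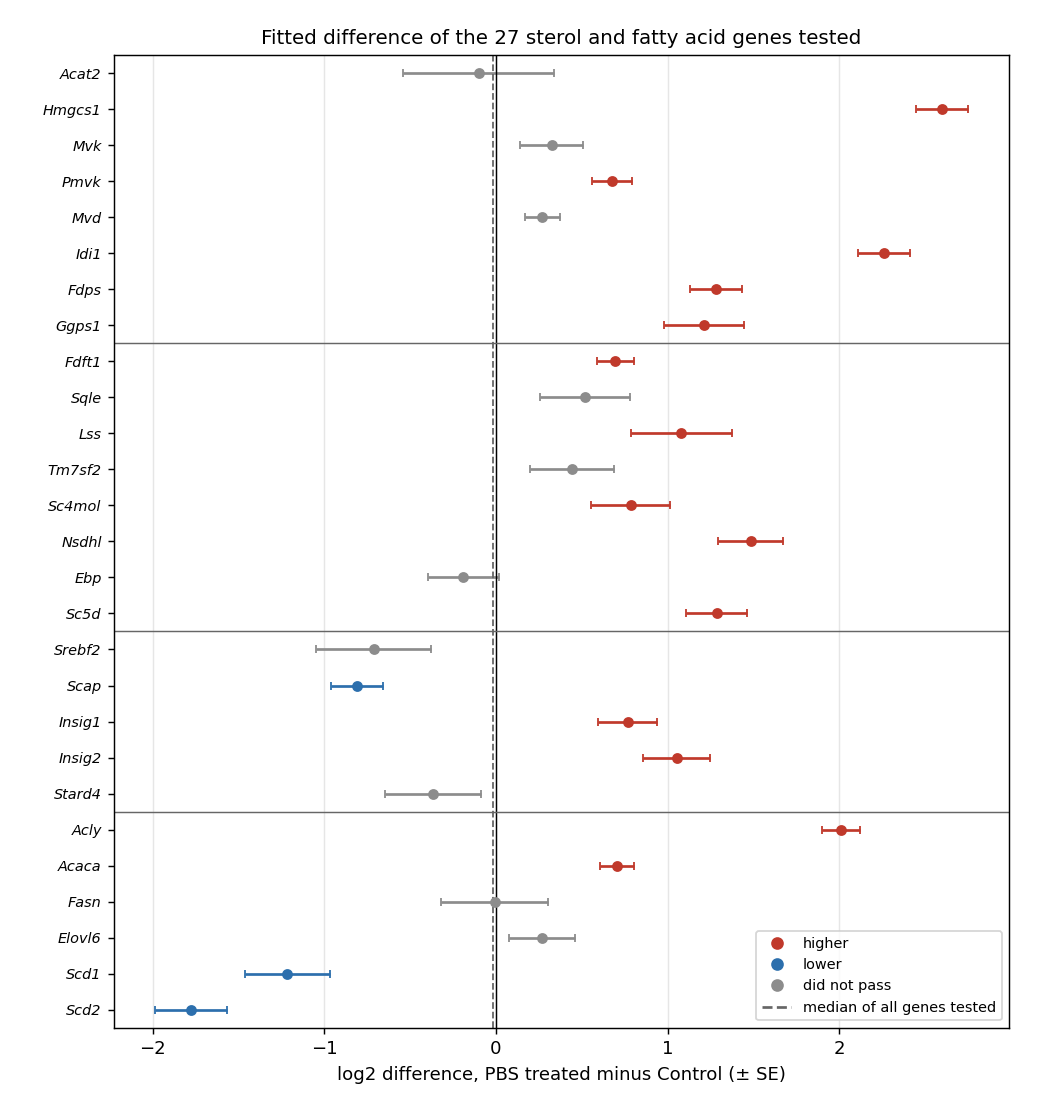
Fitted log2 difference, PBS treated minus Control, of the 27 genes tested (points, with bars of ± 1 SE), in red for genes that rose, in blue for genes that fell and in grey for genes that did not pass; the dashed line is the median of all genes tested. Hmgcs1, Idi1 and Acly exceed 2, and Scd2 is lowest at -1.78. Under spike-in scaling every gene except Scd2 lies above 0.

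Downstream of farnesyl pyrophosphate lie the genes that lead through squalene and lanosterol to cholesterol, of which 8 of 11 were tested. Of the 8, 5 rose (62.5%) and none fell, against 31.6% and 20.7% of all genes tested. Their median difference was 0.74. After normexp with the percentile of detected probes none of the 8 was called higher, and Tm7sf2 and Ebp were called lower. In that setting Lss and Nsdhl lay at -0.51 and -0.37. Fdft1, squalene synthase and the first step committed to sterols, rose by 0.70 ± 0.11 (SE, adjusted p = 0.000744), at -2.69 to -2.51 in PBS treated and -3.40 to -3.14 in Control EVs. Its 60-base probe maps in separate parts between 63765750 and 63769990 of chromosome 14 on mm9.

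Sqle, the squalene epoxidase, which adds the oxygen needed for ring closure, lay at -0.88, -1.38, -0.43, -1.35 and -1.60 in PBS treated and at -1.32, -1.96, -1.48 and -1.83 in Control EVs. The groups overlapped, with PBS treated replicates 1 and 3 above the rest, and the difference of 0.52 ± 0.26 (SE) did not pass (adjusted p = 0.128).

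Lss, lanosterol synthase, which closes the sterol ring system, lay at -4.88, -4.93, -5.40, -4.68 and -4.73 against -5.43, -5.51, -6.58 and -6.49. The Control arrays of slide 2 lay about a log2 unit below those of slide 1 and were not well above background. Lss rose by 1.08 ± 0.29 (SE, adjusted p = 0.0134), but the difference was 0.40 on slide 1 alone (adjusted p = 0.133). On slide 2 alone the values differed by 1.83, but with no Control array well above background a difference was built in there. The test on slide 2 alone is therefore not given. Lss was called higher under 3 of the 6 scalings. Without the Control arrays of slide 2, a check added after the values were seen, Lss differed by 0.55 and did not pass (adjusted p = 0.0708).

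Nsdhl, a dehydrogenase that acts in removing the methyl groups at carbon 4 of the ring, lay at -4.88, -4.76, -4.31, -4.98 and -4.95 in PBS treated EVs. On the Control arrays its values were -6.61, -6.34, -6.01 and -6.08, all not well above background. Nsdhl passed the filter through the PBS treated arrays alone, so a difference was built in and its p is not given. Its level was at least 1.65-fold higher in PBS treated EVs. Sc4mol, also written Msmo1, the methyl oxidase of the same reaction series, rose by 0.78 ± 0.23 (SE, adjusted p = 0.0198), with overlapping groups at -1.49 to -0.996 and -2.56 to -1.39. It passed on slide 1 alone (0.93) and not on slide 2 alone (0.58, adjusted p = 0.318), and under 2 of the 6 scalings, with adjusted p of 0.0530 to 0.0638 under the other 4.

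Sc5d, the desaturase that sets the double bond at carbon 5, lay at -2.63, -2.65, -2.52, -2.87 and -2.66 in PBS treated and at -3.68, -3.77, -4.48 and -3.89 in Control EVs. The PBS treated arrays were tightly grouped above all Control arrays, and Sc5d rose by 1.29 ± 0.18 (SE, adjusted p = 0.000415), or 2.44-fold. Control replicate 3, its lowest array, was not well above background. After normexp with the percentile of detected probes Sc5d lay at 0.28 and did not pass (adjusted p = 0.144). The remaining genes of the late route did not pass or were too dim. Tm7sf2, a sterol reductase, differed by 0.44 (adjusted p = 0.163), at -4.78 to -4.23 in PBS treated and -5.58 to -4.43 in Control EVs. Ebp, the sterol isomerase, differed by -0.19 (adjusted p = 0.458), at -1.46 to -0.64 and -1.24 to -0.64.

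Cyp51, the lanosterol demethylase, was well above background on 1 Control array only, and Hsd17b7, the ketosteroid reductase of the methyl-removing complex, on 3 PBS treated arrays only. Dhcr7, a reductase of the last steps, was well above background on no array. These 3 genes were not tested. Cyp51 lay at -7.95 to -6.31 in PBS treated and -6.71 to -5.80 in Control EVs, Hsd17b7 at -6.72 to -5.13 and -7.31 to -6.23, and Dhcr7 at -7.67 to -6.62 and -7.77 to -6.30. All of these groups overlap.

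Taking both stages of sterol synthesis, 10 of 16 genes tested rose, none fell and 6 did not pass, or 9 of 15 without Nsdhl. Those 9 are 60%, against 29.7% of all genes seen well above background in both groups. The 5 genes with a difference over 1.2 were Hmgcs1, Idi1, Fdps, Sc5d and Ggps1, beside Nsdhl, whose value is a bound.

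The sterol sensing and transport genes did not move together: 2 rose and 1 fell among 5 tested of 6, with a median difference of -0.37. These shares of 40% and 20% are near the 31.6% and 20.7% of all genes tested. Srebf1 was well above background on no array, so its values of -8.25, -7.65, -8.88, -7.40 and -7.94 in PBS treated and -6.27, -5.98, -5.65 and -6.07 in Control EVs carry no difference. Srebf2 lay at -5.67, -5.83, -6.27, -6.60 and -6.11 against -5.19, -4.79, -5.17 and -6.37, and it was well above background only on replicates 1 and 2 of each group. Control replicate 4 lay among the PBS treated arrays, and the other Control arrays lay above them.

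The Srebf2 difference of -0.71 ± 0.33 (SE) did not pass (adjusted p = 0.106). It passed as lower with slide as a block (-0.77, adjusted p = 0.0319) and on slide 1 alone (-0.93, adjusted p = 0.0235), and it was 0.58 with spike-in scaling.

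Scap, the escort of the SREBPs, fell. It lay at -2.87, -2.81, -3.03, -2.39 and -2.65 in PBS treated and at -2.10, -1.85, -1.84 and -1.99 in Control EVs, and no PBS treated array reached a Control array. The difference was -0.81 ± 0.15 (SE, adjusted p = 0.00211), or 1.75-fold lower, and it was called lower under 2 of the 6 scalings. It did not pass where all probes set the percentile (-0.40, adjusted p = 0.403), after normexp and quantile normalization (-0.36, adjusted p = 0.115) or in the deposited value table (-0.30, adjusted p = 0.158), and it turned to 0.48, called higher, with spike-in scaling.

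Both Insig genes, whose products retain Scap, rose. Insig1, itself a target gene of the SREBPs, lay at -4.27, -4.02, -3.97, -3.81 and -3.85 against -4.51, -4.91, -4.48 and -5.10. The groups lay close without overlap, with a rise of 0.77 ± 0.17 (SE, adjusted p = 0.00539), and the value turned to -0.32 after normexp with the percentile of detected probes. Insig2 lay at -1.32, -1.40, -1.75, -1.08 and -1.18 against -2.22, -2.05, -2.59 and -2.73.

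All 5 PBS treated arrays exceeded the Control arrays for Insig2, which rose by 1.05 ± 0.19 (SE, adjusted p = 0.00195). After normexp with the percentile of detected probes Insig2 lay at 0.48 and did not pass (adjusted p = 0.124). The rise was 0.65 on slide 1 and 1.53 on slide 2, and a second Insig2 probe differed by 0.98 and passed. Stard4, a soluble carrier of cholesterol, differed by -0.37 (adjusted p = 0.296), at -3.96 to -2.80 in PBS treated and -3.02 to -2.39 in Control EVs.

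**Figure D3:**
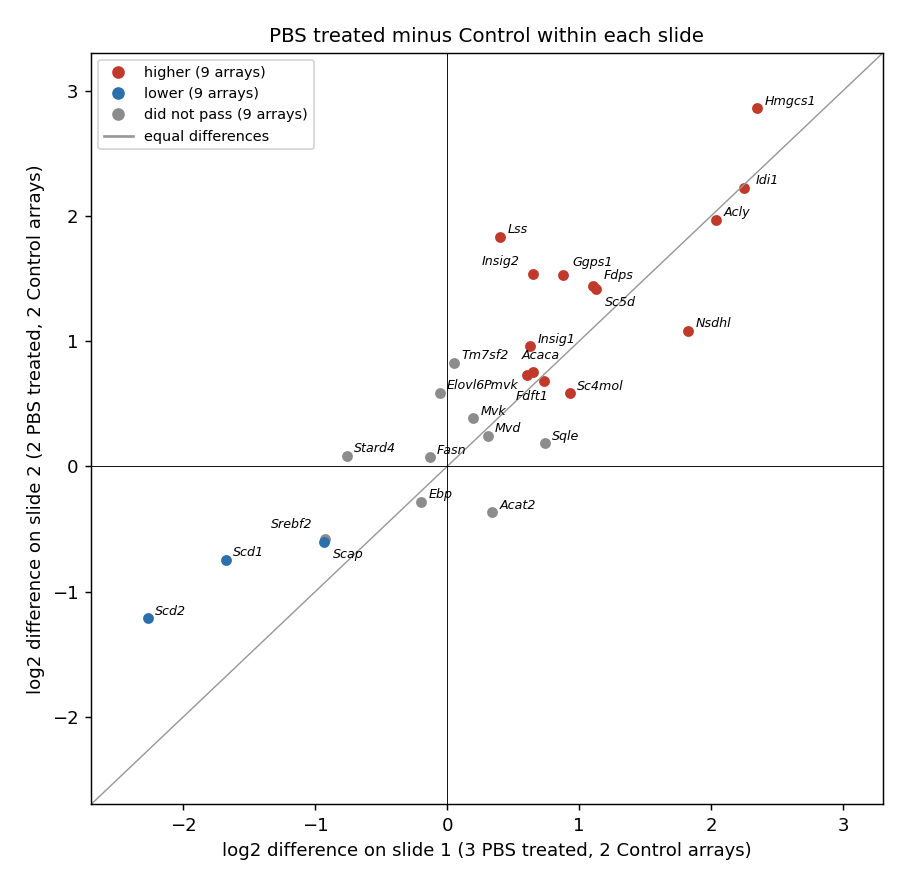
Log2 difference of the 27 genes on slide 1 (x axis, 3 PBS treated and 2 Control arrays) and on slide 2 (y axis, 2 and 2 arrays), coloured by the call on all 9 arrays, with the line of equal differences in grey. In all, 18 genes lie above 0 on both slides and 5 below 0 on both, and Lss, at 0.40 and 1.83, lies farthest from the line among the genes that rose. No Control array of slide 2 was well above background for Lss, so its slide 2 difference was partly built in.

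Across the slides, 18 of the 27 genes were higher and 5 lower on both, and 4 differed in sign, Acat2, Stard4, Fasn and Elovl6. The median difference was 0.60 on slide 1 and 0.69 on slide 2. Of the 17 genes called on all arrays, 9 differed by over 1.5 times between the slides. For Lss, Ggps1, Insig1 and Nsdhl no Control array of slide 2 was well above background, so their slide 2 differences were partly built in. The calls kept their direction on each slide alone, and 1 lost significance on each, Lss on slide 1 and Sc4mol on slide 2.

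Of 6 genes of fatty acid synthesis, all tested, 2 rose, 2 fell and 2 did not pass, with a median difference of 0.13. The share that rose, 33.3%, is near that of all genes (31.6%), and the share that fell is 33.3% against 20.7%. Acly, the ATP citrate lyase that makes cytosolic acetyl-CoA, lay at 1.19, 1.20, 1.43, 1.14 and 1.30 in PBS treated and at -0.77, -0.76, -0.86 and -0.64 in Control EVs. Both groups were tight and far apart, with a rise of 2.01 ± 0.11 (SE, adjusted p = 3.79e-06), or 4.03-fold, and of 2.04 and 1.97 on slides 1 and 2.

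The Acly probe lies at chromosome 11, 100337674 to 100337733 on mm9. A second Acly probe, at chromosome 11, 100365518 to 100365577, differed by 0.48 and did not pass (adjusted p = 0.202), so the probes of this gene did not give the same call. Acaca, the acetyl-CoA carboxylase that commits carbon to fatty acids, rose by 0.71 ± 0.10 (SE, adjusted p = 0.000433), at -1.43 to -1.29 in PBS treated and -2.15 to -1.95 in Control EVs, and where all probes set the percentile it lay at 1.11 and did not pass (adjusted p = 0.0551).

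Fasn, the synthase that builds palmitate, was dim. It lay at -6.15, -6.27, -5.69, -5.73 and -6.85 in PBS treated and at -6.45, -5.36, -6.39 and -6.33 in Control EVs, and was well above background on 3 PBS treated arrays and 1 Control array. The groups overlapped, the difference was -0.01 ± 0.31 (SE, adjusted p = 0.988), and its sign followed the scaling, at 1.28 with spike-in scaling and -0.90 after normexp with the percentile of detected probes. Elovl6, which lengthens palmitate, differed by 0.27 (adjusted p = 0.266), at -3.16 to -2.90 in PBS treated and -3.78 to -2.97 in Control EVs, and passed on slide 2 alone (0.58, adjusted p = 0.0285).

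The stearoyl-CoA desaturases, which place the first double bond in newly made fatty acids, both fell. Scd1 lay at -2.63, -2.60, -3.08, -2.82 and -2.67 in PBS treated and at -1.12, -1.06, -1.93 and -2.07 in Control EVs. Every Control array lay above every PBS treated array, with the Control arrays of slide 1 the highest. The difference was -1.21 ± 0.25 (SE, adjusted p = 0.00318), or 2.32-fold lower.

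Scd2, a paralogue of Scd1 also on chromosome 19, lay at -1.18, -1.02, -1.21, -0.82 and -0.77 against 1.12, 1.14, 0.44 and 0.40. Its groups were farther apart still, with a difference of -1.78 ± 0.21 (SE, adjusted p = 0.000166), or 3.43-fold lower, the largest fall of the 27 genes. On slides 1 and 2 the differences were -1.68 and -0.75 for Scd1 and -2.27 and -1.21 for Scd2. With spike-in scaling Scd1 lay at 0.076 and Scd2 at -0.49, and neither passed, and where all probes set the percentile Scd1 lay at -0.81 and did not pass (adjusted p = 0.218). On mm9 the chromosome 19 probes span 44469387 to 44469446 (Scd1) and 44381024 to 44381083 (Scd2), and cross-hybridisation between the paralogues was not tested.

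**Figure D4:**
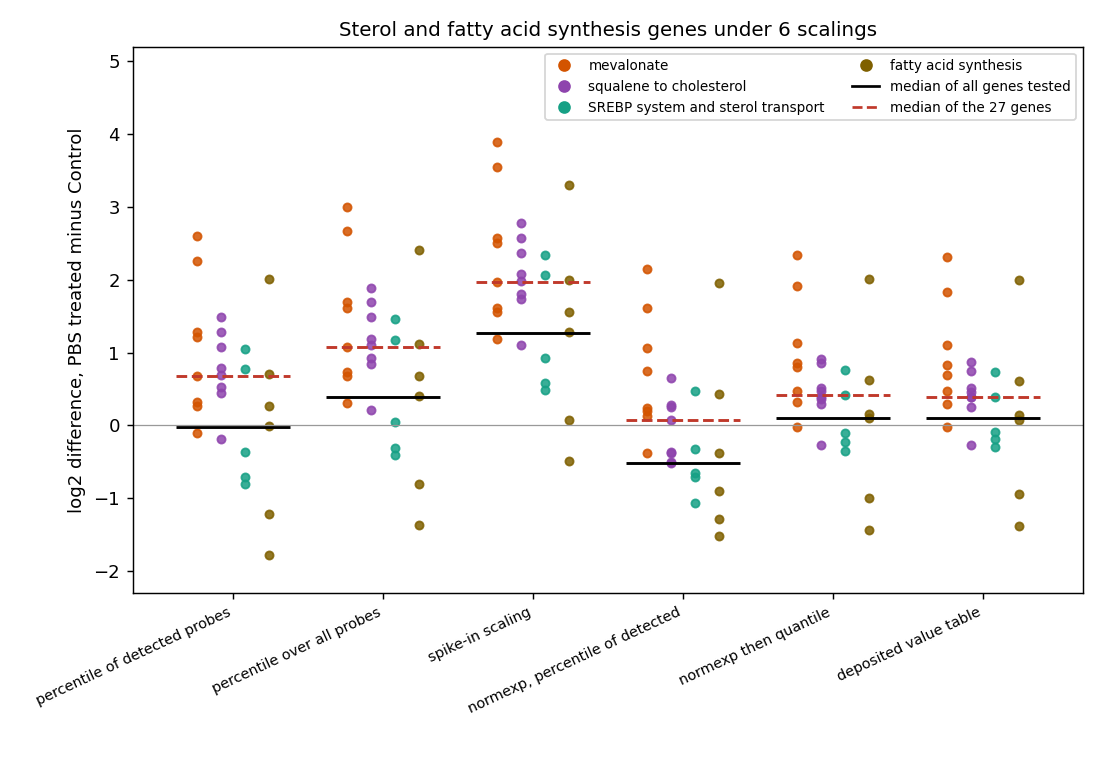
Log2 difference of the 27 genes (points, coloured by role) under 6 scalings on the x axis, with the median of all genes tested as a solid line and that of the 27 genes as a dashed line. The median of the 27 genes lies above that of all genes under each scaling, by 0.30 to 0.69, while both medians move with the scaling.

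The percentile over all probes and the spike-in scaling shifted every gene by the same amount, whereas after normexp genes also moved relative to each other. Relative to the median of all genes, Lss went from 1.10 to -0.0023 and Pmvk from 0.69 to 1.26 after normexp with the percentile of detected probes, while Hmgcs1 lay at 2.62 and 2.65. The median difference of all genes was -0.02 as given, 0.39 with the percentile over all probes, 1.27 with spike-in scaling, -0.51 after normexp with the percentile of detected probes, 0.10 after normexp and quantile normalization, and 0.10 in the authors' deposited table of log2 values. Of all genes called, 60.4% were higher as given, 92.7% with spike-in scaling and 28.9% after normexp with that percentile. Of the 27 genes, 18 lay above the median of all genes under all 6 scalings. Below it under all 6 lay 5, namely Srebf2, Scap, Stard4, Scd1 and Scd2. The percentile over all probes and spike-in scaling leave these positions unchanged by construction, so they add nothing to this count. The same count over all genes was not made. The median of the 27 genes exceeded that of all genes by 0.69 as given and by 0.58, 0.32 and 0.30 under the scalings that start from normexp or the value table.

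Further genes of lipid metabolism were taken from 6 lists, whose counts stand beside 31.6% higher and 20.7% lower over all genes tested. Each list is also counted after normexp with the percentile of detected probes, and with spike-in scaling. Of the other sterol synthesis and SREBP processing genes, 7 rose (43.8%) and 4 fell (25%) among 16 tested, with a median of 0.45, and 2 of the 7 were seen above background in PBS treated EVs only. The balance turned to 2 higher and 6 lower after normexp, and was 12 and 1 with spike-in scaling. Sec24a, part of the COPII coat that carries Scap out of the endoplasmic reticulum, was at least 2.66-fold higher, and Aacs, which makes acetoacetyl-CoA from ketone bodies, rose by 1.99 ± 0.12 (SE, adjusted p = 6.55e-06).

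Of the isoprenoid branch genes, 3 rose (33.3%) and 2 fell (22.2%) among 9 tested, shares near those of all genes, with a median of 0.09. The counts were 0 and 4 after normexp and 7 and 0 with spike-in scaling. Trit1, which attaches isopentenyl groups to tRNA, rose by 0.98 ± 0.13 (SE, adjusted p = 0.000278), but the mean of its probes gave -0.49. Pdss1, which makes the side chain of ubiquinone, rose by 0.93 ± 0.15 (SE, adjusted p = 0.00107).

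Of the sterol uptake, transport and efflux genes, 1 rose (8.33%) and 5 fell (41.7%) among 12 tested, with a median of -0.63. The counts were 0 higher and 8 lower after normexp, 1 and 2 with the percentile over all probes and 3 and 2 with spike-in scaling. Stard3, a late endosomal cholesterol binder, fell by 3.75 on the log2 scale (adjusted p = 4.65e-07), and Apoe, a lipid carrier of efflux, fell by 1.99 (adjusted p = 3.31e-05). The gene of the list that rose was Mylip, a ubiquitin ligase picked here after its values were seen, with a difference of 1.69, and without the Control arrays of slide 2 no gene of the list passed as higher.

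In the list of fatty acid activation, elongation and desaturation, 8 genes rose (50%) and 1 fell (6.25%) among 16 tested, with a median of 0.67. Of the 8, 2 were seen above background in PBS treated EVs only, and the counts were 4 and 5 after normexp and 14 and 0 with spike-in scaling. The acyl-CoA synthetases Acsl4 and Acsl1 rose by 2.12 and 1.74 (adjusted p = 2.15e-06 and 3.67e-05). The gene that fell was Fads1, the delta-5 desaturase, with a difference of -1.998.

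Of the glycerolipid and lipid droplet genes, 5 rose (38.5%) and 4 fell (30.8%) among 13 tested, with a median of -0.21, against 2 and 4 after normexp and 8 and 2 with spike-in scaling. Dgat2, which makes triglyceride, was well above background on all 5 PBS treated arrays and no Control array, so its test is not given, and it was at least 25.8-fold higher. Lpin2, a phosphatidate phosphatase, fell by 2.63 (adjusted p = 2.15e-06). Dgat1, the other enzyme of the Dgat2 step and picked after its values were seen, fell by 2.38.

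Of the fatty acid oxidation genes, 17 rose (77.3%) and none fell among 22 tested, with a median of 0.71. Acaa1a, a thiolase of the peroxisomal route, rose by 1.25 ± 0.12 (SE, adjusted p = 4.49e-05). The counts were 10 higher and 3 lower after normexp, 9 and 0 with the percentile over all probes and 21 and 0 with spike-in scaling.

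**Figure D5:**
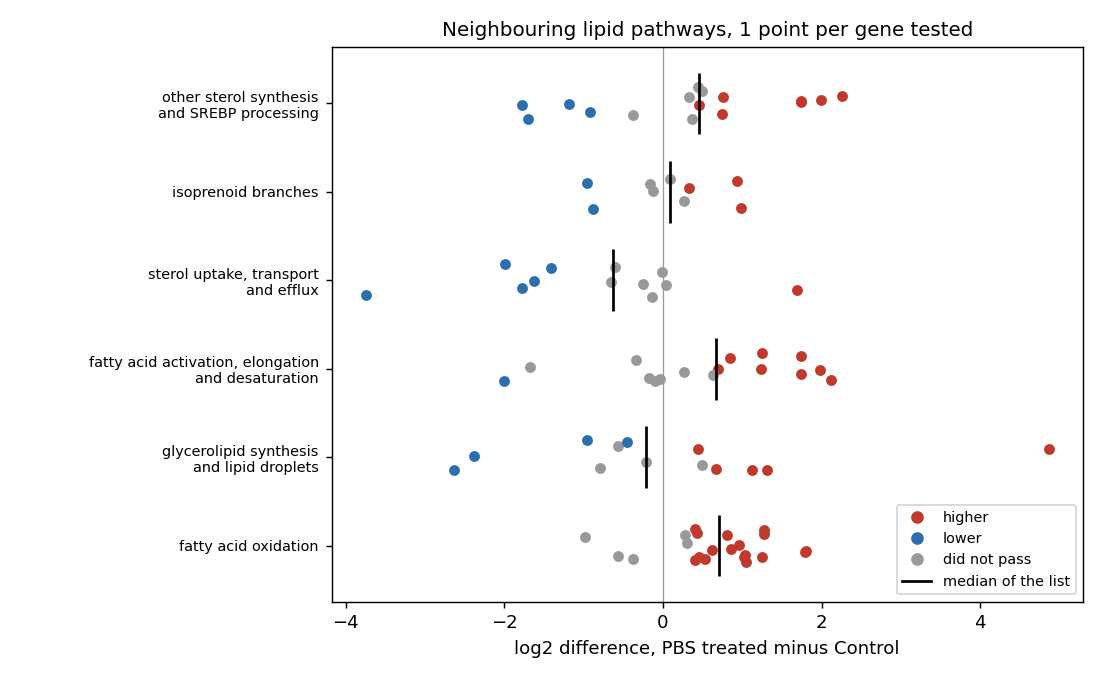
Log2 difference, PBS treated minus Control, of each gene tested in 6 lists of lipid metabolism (points, red for genes that rose, blue for genes that fell, grey for genes that did not pass), with the median of each list as a black bar. Medians run from -0.63 for sterol uptake, transport and efflux to 0.71 for fatty acid oxidation, and counts in each list change with the scaling.

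Markers of other cell types moved with the groups in part. The summed level of a list follows its brightest probes and does not describe the others. Of 10 adipocyte markers, 6 were well above background on a PBS treated array and 3 on a Control array. Their summed level (log2) was -0.27 to -0.12 in PBS treated and -2.89 to -1.64 in Control EVs, with Fabp4 alone at a mean of -0.52 in PBS treated EVs. Fabp4 and Pparg were the tested ones, higher by 4.56 and 1.66, whereas Adipoq, Plin1, Cfd and Lpl were well above background on no array. Of 10 hepatocyte markers Apoa2 alone was well above background, and it fell by 1.91, with a summed level of the list of -3.82 to -2.10 in PBS treated and -1.94 to -0.69 in Control EVs. Of 10 markers of macrophages and other leukocytes, 7 were well above background on a PBS treated array and 5 on a Control array, and Cd68, Emr1 and Lyz2 on none, with a summed level of 0.19 to 1.07 and 1.13 to 1.74. Of the 5 tested, Cd14 was higher by 2.21 (adjusted p = 0.00101), Csf1r differed by -2.699 (adjusted p = 0.0245) and Itgam by -1.30 (adjusted p = 0.00248), and the others did not pass. The part of these in the lipid genes was not tested.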

How the data were processed

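EV RNA of 5 PBS treated and 4 Control MEF samples was hybridised to 1-colour Agilent 8x60K arrays. Per the file headers, the authors quantified the scans with Agilent Feature Extraction 10.7.3.1, and the deposited scanner files hold background-corrected probe intensity on a linear scale. The steps of the in-house pipeline the authors then ran are not given in the sources used here. In the deposited value table, log2 values rank the probes of each array as its mean signal does and share 1 distribution (median 5.97). Its centring is unstated, and it served as an alternative.

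Control spots and non-uniform spots (3 to 29 per array) were left out, and no spot was saturated. Log2 intensity was set to the 75th percentile of each array over probes well above background on all arrays. Probes well above background on at least 4 arrays were tested with limma 3.58.1 in R 4.3.3 (lmFit and eBayes, two-sided, Benjamini-Hochberg adjustment over 14267 genes, threshold 0.05). The fit was tested on simulated data, drawn as independent values with no slide effect and few shifted probes. That test does not cover slide differences or changes in as many genes as are called here. For a gene not well above background throughout a group, the fold was taken against the lowest signal that was, and is written "at least". Probe positions are mm9, whose exon and UTR annotation was not used here, and promoters are from RefSeq on GRCm38.p6. Motifs were searched with Python 3.11.15.

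Genes, lists and tests were chosen with earlier results of these data known. All 31 genes are accounted for, with values per array for called genes with an absolute difference of at least 1 and for Srebf1, Srebf2, Scap, Insig1, Insig2, Hmgcs1, Sqle, Fasn and Scd1, and up to 2 called genes of smallest p from each other list. Some genes of those lists are not reported by name here. Alternatives were 5 other scalings (one to 8 spike-in probes, those with normexp at an offset of 50) and 2 filters. Others were the mean of the probes of a gene, a block for slide or replicate, each slide alone, the t-test of the methods and each array left out. The number of arrays limits the precision.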

Additional observations from a re-analysis of the deposited data

Results flagged for a closer look

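Of 62 groups of arrays checked, 2 held an array whose gap to its nearest neighbour was large against the range of the group. Chance gives about 1 in 20. For Stard4, PBS treated replicate 3 lay lowest at -3.96, with the next array at -3.01, a gap of 0.814 of the range. For Fasn, Control replicate 2 lay highest at -5.36, with the next array at -6.33, a gap of 0.889 of the range, and it was the Control array on which Fasn was well above background.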

How the results depend on the processing

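Of the 17 genes called, all 17 kept their direction and call when each array was left out, with slide as a block, with the mean of the probes of a gene and with the methods' t-test, which called 15 higher and 3 lower both at its unadjusted threshold and after Benjamini-Hochberg adjustment. Leaving out each array gave 14 to 15 genes higher, 3 to 4 lower and a median of 0.60 to 0.68. Spike-in scaling gave 23 higher, 0 lower and a median of 1.97, the percentile over all probes 1 lower and a median of 1.08, and normexp with the percentile of detected probes 6 higher, 7 lower and a median of 0.069. Without the Control arrays of slide 2, a setting chosen after seeing the data, 14 were higher and 4 lower, with a median of 0.55.

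The replicate numbers were not taken as pairs, because not every pair deviated together. Same-numbered arrays correlated at 0.67, 0.73 and 0.73 for numbers 1, 2 and 4, and each of these PBS treated arrays correlated best with the Control array of its own number, but at -0.47 for number 3, whose arrays lay on different slides. With the replicate number as a block, which uses the 4 shared numbers, 14 genes were higher and 4 lower, Sqle and Srebf2 passed and Sc4mol did not.

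Signs turned as follows. The percentile over all probes and spike-in scaling shifted every difference by the same amount, and the turns under them are that shift. The cause of the other turns was not tested. With the percentile over all probes, Acat2 lay at 0.31, Ebp at 0.22, Stard4 at 0.040 and Fasn at 0.40. With spike-in scaling, Acat2 lay at 1.19, Ebp at 1.10, Srebf2 at 0.58, Scap at 0.48, Stard4 at 0.93, Fasn at 1.28 and Scd1 at 0.076. After normexp with the percentile of detected probes, Lss lay at -0.51, Tm7sf2 at -0.50, Nsdhl at -0.37, Insig1 at -0.32, Elovl6 at -0.38 and Pdss1 at -0.28. Fasn was 0.10 after normexp and quantile normalization and 0.076 in the value table. Acat2 was 0.020 with slide as a block, 0.34 on slide 1 alone and 0.69 without the Control arrays of slide 2. Elovl6 was -0.058 on slide 1 alone and -0.075 without those arrays. On slide 2 alone Stard4 was 0.084 and Fasn 0.072, and Fasn was 0.17 with the replicate block. With 1 array left out, Acat2 ranged from -0.41 to 0.18 and Fasn from -0.12 to 0.25. The mean of the probes turned Trit1 to -0.49.

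Dim probes limit the reading of Lss, Tm7sf2, Ggps1, Insig1 and Srebf2, which were well above background on 2 Control arrays, and of Fasn, on 1. Sc5d was well above background on 3 Control arrays.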
